A study of Mus musculus with 6 samples.

Results

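The genes described here are 39 genes of mitosis and the spindle: cyclins and kinases that drive division, proteins of the kinetochore and its checkpoint, microtubule motors, and factors of cytokinesis. They were listed by name and found through probe sets annotated with exactly 1 gene symbol, which gave 37 of the 39, among 17097 genes named on the arrays. Ccnb1 and Nuf2 had no such probe set and were not analysed here. Where a gene had several probe sets, the one of highest mean level stands for it, and all levels are log2 values as deposited.

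Pro-B cells of wild-type mice were measured on 3 arrays, and pro-B cells labelled HDAC7 deficient on another 3, the latter from mice described as HDAC7 conditional. All were sorted from mice as B220+CD43+IgM- cells, and 25 ng of total RNA was amplified before it was labelled for Affymetrix perfect-match arrays. HDAC7 is a class IIa histone deacetylase, a repressor that acts with MEF2 transcription factors. The sources used here do not give the driver of the deletion, the exons removed, the strain, age or sex of the animals, or whether animals were pooled.

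Mitosis genes are transcribed late in the cell cycle, in G2 and M, and are kept low in resting cells. Their promoters are known for a CCAAT box, bound by NF-Y, and for a cell cycle genes homology region (CHR), bound by the MuvB complex, which represses them in resting cells and activates them with B-MYB and FOXM1 in dividing cells. In bone marrow, pro-B cells divide in response to interleukin 7, and large pre-B cells divide again once the pre-B cell receptor is made. On arrays of many cells, a smaller share of dividing cells and less RNA in each of them cannot be told apart.

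The promoters of these genes share short sequences that the list was not chosen on. RefSeq promoter windows (GRCm38.p6, 250 bases before to 50 after a gene start) were found for 34 of the 39 genes. The CHR hexamer TTTGAA, on either strand, was in the windows of 26 of the 34 (76.5%), against 15.6% of the 13605 genes on the arrays that had a window. Within 50 bases of the start it was found in 24 of the 34 (70.6%), against 4.12% of those 13605 genes. The pentamer CCAAT, on either strand, was in 26 of the 34 (76.5%), against 42.3%, and both motifs were in 23 (67.6%), against 6.17%. Matches of the 2 motifs can share at most 1 base, and a match is a description of letters, not a binding site. The 8 windows without the hexamer were those of Ccnb1, Melk, Birc5, Bub1, Mad2l1, Nuf2, Cenpe and Nusap1. Ccna2, Aurkb, Tpx2, Dlgap5 and Kif20a had no window.

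In 6 genes with a single listed start, both motifs lay entirely within the 100 bases before it. These stretches are printed 5′ to 3′ on the gene's strand, with both motifs in capitals (TTCAAA and ATTGG are their reverse complements). They show the spacing of the pair in these 6 genes only, which were picked for holding both motifs within 100 bases. The last hexamer followed the nearest upstream pentamer by 21 to 32 bases: 23 in Ube2c, 30 in Cdc20, 32 in Kif22, 28 in Cdk1, 30 in Top2a and 21 in Kif11. In other genes with both motifs the spacing varied more. The nearest upstream pentamer and the hexamer began at -7 and 3 in Kif23, -28 and 8 in Ttk, -71 and 3 in Cenpf, and -113 and 41 in Bub1b. The stretches lie at chr2:164769829-164769928 (Ube2c, plus strand), chr4:118437344-118437443 (Cdc20, minus), chr7:127042421-127042520 (Kif22, minus), chr10:69352913-69353012 (Cdk1, minus), chr11:99024190-99024289 (Top2a, minus) and chr19:37376282-37376381 (Kif11, plus).
Ube2c: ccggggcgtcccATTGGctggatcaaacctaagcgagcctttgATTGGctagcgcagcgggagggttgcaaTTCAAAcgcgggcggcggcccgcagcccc
Cdc20: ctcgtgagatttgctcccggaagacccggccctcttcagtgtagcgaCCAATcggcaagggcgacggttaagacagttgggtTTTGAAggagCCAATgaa
Kif22: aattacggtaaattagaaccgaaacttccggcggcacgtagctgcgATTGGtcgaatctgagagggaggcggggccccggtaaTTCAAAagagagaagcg
Cdk1: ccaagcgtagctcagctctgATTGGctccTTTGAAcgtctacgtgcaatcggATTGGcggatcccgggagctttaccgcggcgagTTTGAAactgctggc
Top2a: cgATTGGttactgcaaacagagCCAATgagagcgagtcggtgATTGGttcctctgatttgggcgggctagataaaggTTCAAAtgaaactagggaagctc
Kif11: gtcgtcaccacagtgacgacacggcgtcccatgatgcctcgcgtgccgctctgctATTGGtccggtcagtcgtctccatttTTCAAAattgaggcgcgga

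The other 20 genes with the hexamer had it after the start or farther upstream, lacked the pentamer beside it or had 2 listed starts. Its first base was at position 3 of the transcript in Kif23 and Cenpf, 5 in Ccnb2, 6 in Racgap1, 31 in Plk1 and Cdca3, and 41 in Bub1b. Mki67, the gene of the proliferation antigen Ki-67, held it only farther upstream, with first bases at -116 and -98, and Kif2c at -103. The share of windows with the hexamer within 50 bases of the start was 40.3% (25 of 62) among other mitosis genes, 22.2% (4 of 18) among cell cycle transcription factors and 6.45% (2 of 31) among genes of S phase.

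**Figure D1:**
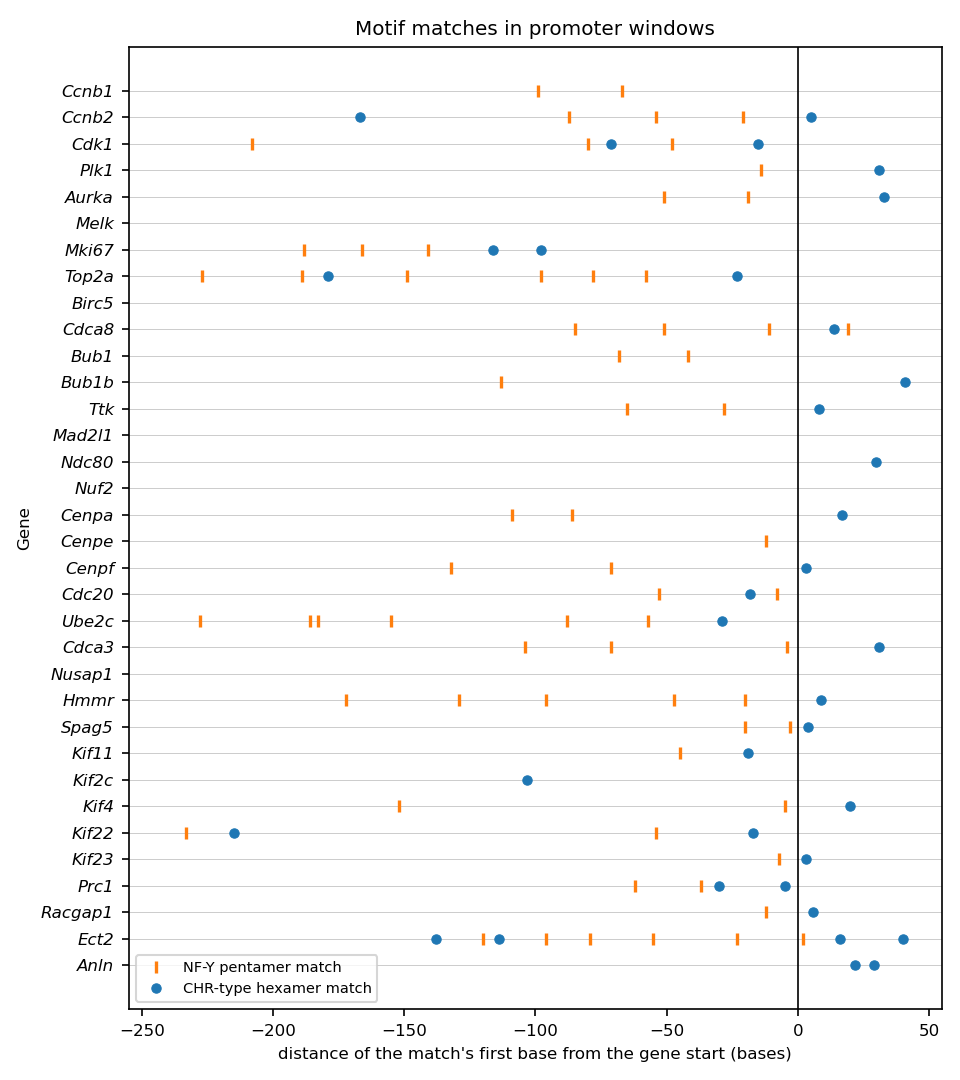
Positions of the CHR-type hexamer (circles) and of the NF-Y pentamer (bars) in the promoter windows of 34 mitosis and spindle genes, by the distance of the match's first base from the gene start in bases. The hexamer lies within 50 bases of the start in 24 of the 34, and for Prc1 and Ect2 the matches of 2 listed starts are drawn together.

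The arrays were not of equal quality, and wild-type replicate 3 stood apart. Its values correlated with those of the other arrays at 0.70 to 0.82, against 0.94 to 0.99 among the other 5. Its interquartile range was 1.72, against 2.27 to 2.93, and the 3′ probe set of Actb exceeded the middle one by 1.69, against 0.16 to 0.26. The other arrays differed as well. The mean level of 18 spike-in control probe sets was 9.17, 8.92 and 10.23 in wild type and 8.64, 9.99 and 10.78 in HDAC7 deficient. Arrays also divided by Xist, which exceeded the Y-linked Eif2s3y on 3 arrays, called Xist-high here (replicate 3 of wild type, and replicates 2 and 3 of HDAC7 deficient), and not on the others, called Xist-low. Hdac7 did not check the labels: it read 9.06, 9.48 and 7.31 in wild type and 9.95, 9.54 and 9.27 on the arrays labelled HDAC7 deficient, and whether the probes lie in the deleted part is not known. The 12 pro-B markers measured had a median level of 7.70 on wild-type replicate 3 and 9.41 to 10.35 elsewhere, while 8 myeloid markers had medians of 10.44 to 11.28 over the arrays.

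Mitosis and spindle genes did not separate wild-type from HDAC7-deficient pro-B cells. None of the 37 passed an adjusted p of 0.05 in limma (lowest 0.383, for Kif23), none reached an unadjusted p of 0.05, and none had groups that did not overlap. Over all 17097 genes 0% passed, 3.52% were higher and 9.14% lower at an unadjusted p under 0.05, and 9.45% and 16.8% had groups apart on the higher and the lower side. With all 6 arrays 29 of the 37 had a higher mean in HDAC7 deficient and 8 a lower one, with a median change of 0.32. The median was -0.03 over all genes and 0.56 over the 4274 genes (25%) of highest mean, called the brightest genes below. Centring each array on its median gave 33 higher and 4 lower and moved the median of all genes to 0.10, and quantile normalization gave 15 higher and 22 lower. Without wild-type replicate 3 the direction turned: 9 were higher and 28 lower, with a median of -0.11, against -0.05 over all genes and 0.06 over the brightest. In that comparison too 0 of the 37 passed in limma, 0 reached an unadjusted p of 0.05 (background 5.19% higher and 8.84% lower) and 0 had groups apart (11.8% and 19%). Of the markers of plasmacytoid dendritic cells, which also carry B220, 6 of 6 measured were higher in HDAC7 deficient, by a median of 1.41, and 3 (Tcf4, Cox6a2 and Tlr7) had groups apart. All 6 were still higher without wild-type replicate 3, by a median of 0.36, while most of the 37 genes were then lower. Their list medians were 10.05, 10.30 and 7.24 in wild type and 10.27, 10.79 and 10.71 in HDAC7 deficient, and their part in the result was not tested. With all arrays 7 of 8 NK and T, 6 of 8 myeloid and 10 of 12 pro-B markers were higher too. So were 3 of 5 erythroid and 2 of 6 large pre-B and later B markers. Without wild-type replicate 3 these counts were 6, 5, 3, 4 and 4, in the same order. Of the brightest genes 89.6% were higher with all arrays and 59.9% without that array.

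The size of change that these arrays would show differed widely between genes. With wild-type replicate 3 left out, the 95% interval of Mki67 ran from -0.31 to 0.31 and that of Ccna2 from -0.60 to 0.16 on the log2 scale. Those of Kif23 (-0.30 to 1.33), Ect2 (-1.28 to 1.26) and Anln (-1.03 to 1.19) included changes of more than 1 log2 unit. An interval that includes 0 does not show that the 2 genotypes were alike.

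**Figure D2:**
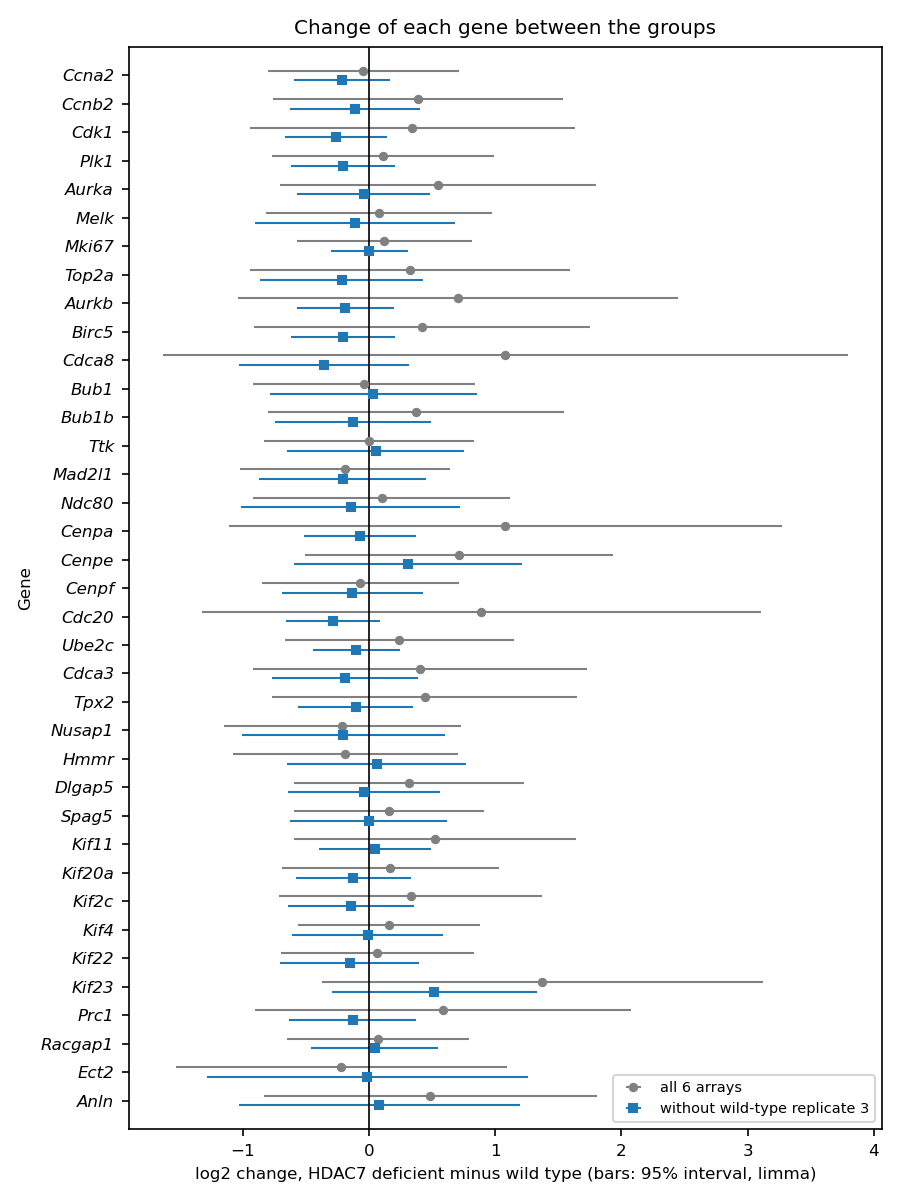
Change in log2 level of each of the 37 genes, HDAC7 deficient minus wild type, with 95% intervals from limma, over all 6 arrays (circles) and without wild-type replicate 3 (squares). Every interval includes 0, and 29 circles but 9 squares lie above 0.

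The comparison was also made within the Xist division. Among the Xist-low arrays HDAC7-deficient replicate 1 lay above the mean of wild-type replicates 1 and 2 for 33 of 37 genes, by a median of 0.23, against -0.04 over all genes and 0.14 over the brightest. It is the only HDAC7-deficient array there, and lay above wild-type replicate 1 for 37 genes and above wild-type replicate 2 for 19. Among the Xist-high arrays the median was 0.83 (30 of 37 higher), against -0.12 and 1.44, and there the only wild-type array is replicate 3. With the division as a block the median was 0.56, and 6 of the 37 were higher at an unadjusted p under 0.05 in limma, near the 15.7% of all genes. These 6, Cdca8, Cenpa, Cenpe, Kif23, Prc1 and Anln, had limma adjusted p-values of 0.0947 to 0.110.

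Cyclins and their kinase start mitosis. Ccna2, cyclin A2, which acts from S phase into G2, read 10.88, 11.25 and 10.56 in wild type and 11.15, 10.66 and 10.75 in HDAC7 deficient. The groups interleaved, and the change was -0.04 ± 0.32 (SE; limma adjusted p = 0.928). Ccnb2, a B-type cyclin, read 8.90, 9.40 and 7.65 against 9.29, 8.96 and 8.86, a change of 0.39 ± 0.48 (0.592), or -0.11 ± 0.22 without wild-type replicate 3. Only that array lay clearly below the others. Cdk1, the kinase that both cyclins activate, read 9.86, 10.14 and 8.19 against 10.00, 9.58 and 9.63, a difference of 0.34 ± 0.54 with that array and of -0.26 ± 0.18 without it.

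Of the other mitotic kinases, Aurka, which matures centrosomes and the spindle poles, read 8.32, 8.76 and 6.77 in wild type and 8.68, 8.53 and 8.29 in HDAC7 deficient. Plk1, a kinase of mitotic entry and of later steps, read 9.15, 9.53 and 8.37 against 9.16, 9.14 and 9.09. For Plk1 the HDAC7-deficient arrays lay close together (SD 0.04, n = 3). Wild-type replicate 1 lay among them, wild-type replicate 2 above them and wild-type replicate 3 below them (wild-type SD 0.59, n = 3). Changes were 0.55 ± 0.53 (limma adjusted p = 0.508) for Aurka and 0.11 ± 0.37 (0.842) for Plk1, and -0.04 ± 0.23 and -0.21 ± 0.18 without wild-type replicate 3. Melk, a kinase gene used as a marker of proliferation, differed by 0.08 ± 0.38, or -0.11 ± 0.34 without that array.

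For chromosome structure, Mki67, whose product coats mitotic chromosomes, varied little between arrays. It read 10.57, 10.78 and 10.32 in wild type and 10.90, 10.56 and 10.57 in HDAC7 deficient, a change of 0.12 ± 0.29 (limma adjusted p = 0.777). Leaving out wild-type replicate 3 gave 0.00 ± 0.13, with nearly equal means in both groups. Top2a, topoisomerase II alpha, which untangles sister chromatids, read 8.90, 9.36 and 7.51 against 9.43, 8.68 and 8.64, a change of 0.32 ± 0.53 (0.682), or -0.22 ± 0.28 without that array.

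The chromosomal passenger complex, which corrects faulty kinetochore attachments and then guides cytokinesis, held the gene with the largest deficit on wild-type replicate 3. Aurkb, its kinase, read 9.97, 10.32 and 7.47 in wild type and 10.18, 9.90 and 9.80 in HDAC7 deficient. Birc5, survivin, read 10.21, 10.44 and 8.45 against 10.44, 10.03 and 9.89, and Cdca8, borealin, 9.51, 9.86 and 5.38 against 9.94, 9.10 and 8.95. On wild-type replicates 1 and 2 all 3 genes lay among or above the HDAC7-deficient values. The changes of 0.70 ± 0.74, 0.42 ± 0.56 and 1.08 ± 1.15 became -0.19 ± 0.17, -0.21 ± 0.18 and -0.36 ± 0.29 without wild-type replicate 3 (limma adjusted p = 0.630, 0.622 and 0.601).

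Among 8 kinetochore and checkpoint genes 4 were higher and 4 lower, with changes from -0.19 (Mad2l1) to 1.08 (Cenpa). Cenpe, a kinesin that carries chromosomes to the metaphase plate, read 7.69, 8.71 and 6.99 in wild type and 9.14, 8.27 and 8.11 in HDAC7 deficient, a change of 0.71 ± 0.52 (limma adjusted p = 0.433). Wild-type replicate 2 lay within the HDAC7-deficient range and the other wild-type arrays below it. Cenpf, a large kinetochore protein that builds up in G2, read 9.43, 9.65 and 9.35 against 9.87, 9.27 and 9.09, a change of -0.07 ± 0.33 (0.891). Without wild-type replicate 3 the changes were 0.31 ± 0.39 and -0.13 ± 0.24. The dimmer Cenpe probe set changed by 0.06 ± 0.26, or 0.04 ± 0.24 without that array. Dimmer Cenpf probe sets changed by 0.67 ± 0.48 and -0.32 ± 0.22, or 0.12 ± 0.19 and -0.12 ± 0.16 without it. The checkpoint kinases Bub1 and Ttk had differences of -0.04 ± 0.37 and 0.00 ± 0.35, or 0.03 ± 0.36 and 0.05 ± 0.31 without that array. Mad2l1, which holds back the anaphase-promoting complex until chromosomes are attached, read 9.03, 9.34 and 9.13 against 9.54, 8.80 and 8.59. Its groups interleaved, and HDAC7-deficient replicate 1 was the highest array. Ndc80, which grips the microtubule, differed by 0.10 ± 0.43, or -0.15 ± 0.38 without wild-type replicate 3.

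The ubiquitin pathway ends mitosis by destroying cyclin B and securin. Cdc20, the activator of the anaphase-promoting complex, read 9.75, 10.14 and 6.42 in wild type and 9.77, 9.61 and 9.60 in HDAC7 deficient. Ube2c, its ubiquitin-conjugating enzyme, read 10.21, 10.55 and 9.37 against 10.47, 10.18 and 10.19. In both genes wild-type replicate 3 was the lowest array and wild-type replicate 2 the highest. Changes were 0.89 ± 0.94 (limma adjusted p = 0.534) and 0.24 ± 0.38 (0.673). Without wild-type replicate 3 that of Cdc20 was -0.29 ± 0.16 (0.453), the smallest p of the 37 genes in that fit, and that of Ube2c -0.10 ± 0.15.

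Spindle assembly factors organise microtubules, and kinesin motors slide or carry along them. Tpx2, which activates Aurora A on spindle microtubules, read 9.32, 9.68 and 7.86 in wild type and 9.67, 9.26 and 9.26 in HDAC7 deficient, a change of 0.44 ± 0.51 (limma adjusted p = 0.566). Kif11, the kinesin Eg5 that pushes spindle poles apart, read 9.65, 10.11 and 8.45 against 10.19, 9.74 and 9.86, a change of 0.52 ± 0.47 (0.486). Without wild-type replicate 3 these were -0.11 ± 0.20 and 0.05 ± 0.19. The 5 kinesin motors had changes of 0.07 (Kif22) to 0.52 (Kif11) with all arrays and of -0.15 to 0.05 without that array. Among the 5 spindle assembly genes the lowest changes were those of Nusap1 (-0.21) and Hmmr (-0.19), which were not lowest on wild-type replicate 3.

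Cytokinesis genes held the largest change of the 37. Kif23, the motor of the centralspindlin complex at the spindle midzone, read 6.76, 7.95 and 4.78 in wild type and 8.13, 7.77 and 7.72 in HDAC7 deficient. Wild-type replicate 2 lay inside the HDAC7-deficient range, while the other wild-type arrays lay below it. The change was 1.37 ± 0.74 (limma adjusted p = 0.383), or 0.52 ± 0.35 (0.526) without wild-type replicate 3. Prc1, which bundles midzone microtubules, read 9.64, 9.94 and 7.64 against 10.06, 9.44 and 9.47, a change of 0.59 ± 0.63 (0.541), or -0.13 ± 0.22. Racgap1, the partner of Kif23 in centralspindlin, differed by 0.07 ± 0.30.

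**Figure D3:**
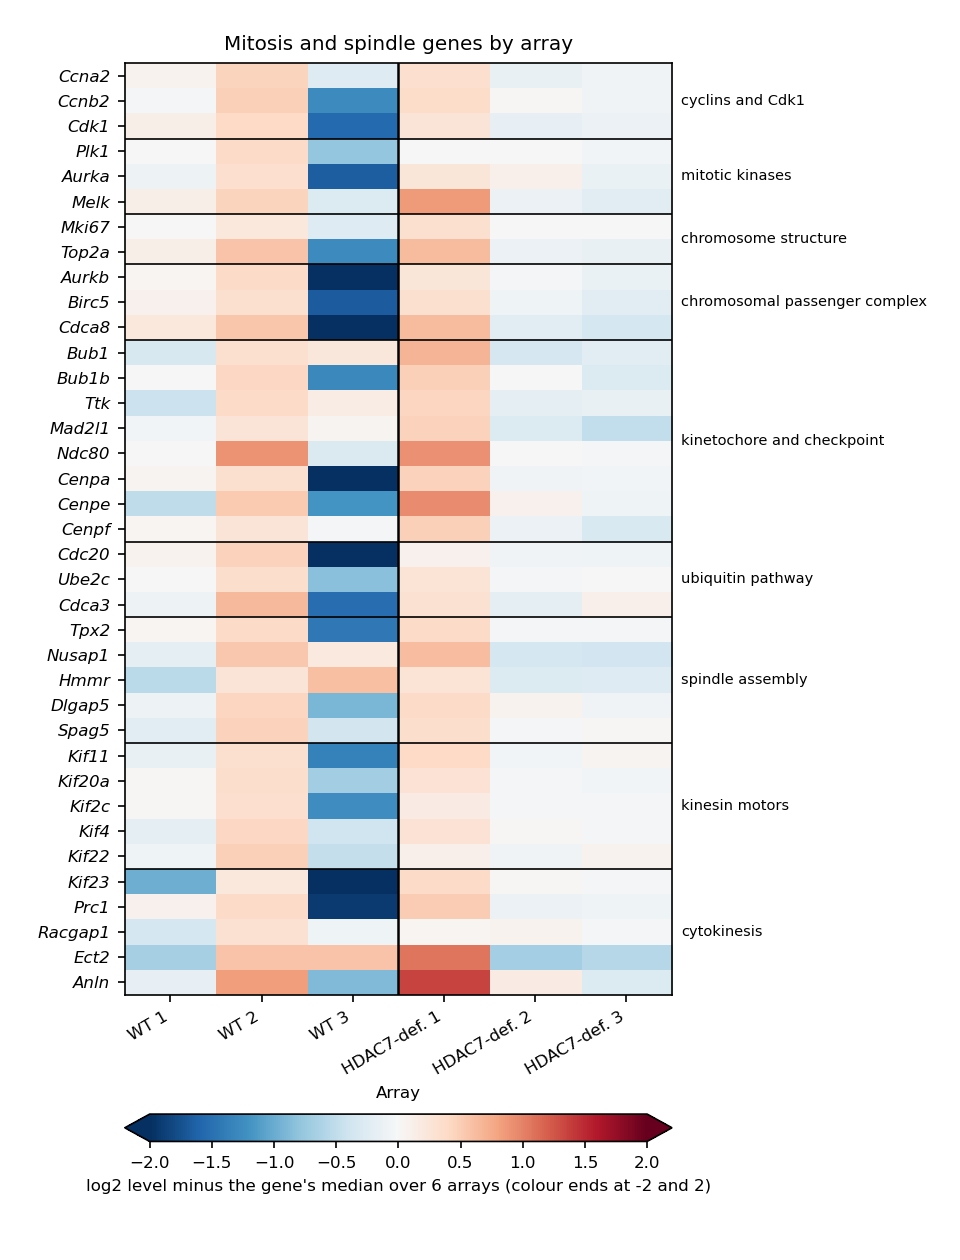
Level of each of the 37 genes on each array as the difference from that gene's median over the 6 arrays (log2; colour ends at -2 and 2), grouped by role, wild type left of the black line and HDAC7 deficient right of it. Wild-type replicate 3 is lowest for 29 genes, and wild-type replicate 2 and HDAC7-deficient replicate 1 are the upper pair of the other 5 arrays for 36.

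The 37 genes shared an order of arrays within each genotype, and other mitosis genes, S phase genes and cell cycle transcription factors largely did too. Wild-type replicate 2 read higher than wild-type replicate 1 for all 37, by 0.21 to 1.22 with a median of 0.44. This was so for 52.5% of all genes, with a median of 0.02, and for 89.0% of the brightest genes, with a median of 0.23. HDAC7-deficient replicate 1 read higher than both replicates 2 and 3 for 36 of 37, with Racgap1 as the exception, by medians of 0.45 and 0.43. Of all genes 36.1% did so, with medians of 0.00 and -0.02, and of the brightest genes 53.8%, with medians of 0.05 and 0.16. Replicates 2 and 3 differed from each other by a median of 0.03. Wild-type replicate 2 was also above replicate 1 for 66 of 70 other mitosis genes (median 0.50), 36 of 37 S phase genes (0.36) and 21 of 22 cell cycle transcription factors (0.42). HDAC7-deficient replicate 1 was above both others for 58 of 70, 33 of 37 and 18 of 22 of these. Of 16 G1 cyclins, their kinases and inhibitors 13 were higher on wild-type replicate 2 than on replicate 1 (median 0.24). HDAC7-deficient replicate 1 was above both others for 9 of these 16 (56%), near the share of the brightest genes.

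Across genotypes the same arrays stood out. Wild-type replicate 2 read higher than HDAC7-deficient replicates 2 and 3 for all 37 genes, and HDAC7-deficient replicate 1 read higher than wild-type replicate 1 for all 37. Wild-type replicate 2 was above HDAC7-deficient replicate 1 for 18 genes and below it for 19. With wild-type replicate 3 set aside, the largest spreads within a genotype were those of Ect2, the exchange factor that starts the cleavage furrow. It read 5.39 and 6.61 on wild-type replicates 1 and 2 and 7.11, 5.36 and 5.48 in HDAC7 deficient. Anln, anillin, a scaffold of that furrow, read 5.94 and 6.93 against 7.46, 6.26 and 5.82. For both genes, as for others of the 37 such as Mki67 and Kif23, arrays of 1 genotype differed by more than the group means did. Ect2 and Anln also had the lowest mean levels of the 37.

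**Figure D4:**
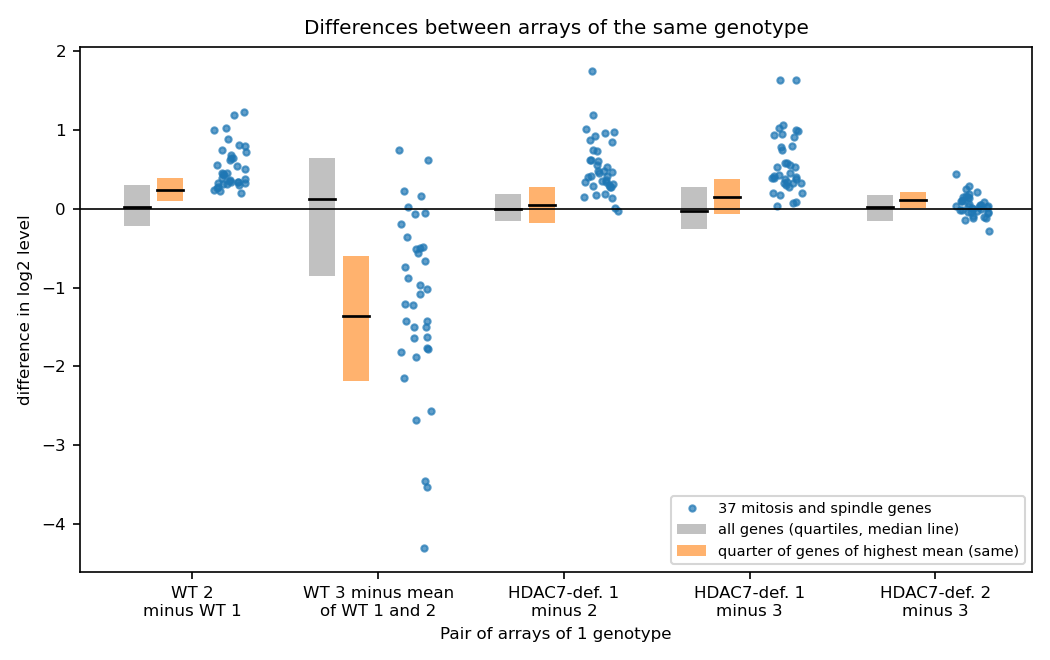
Differences in log2 level between arrays of the same genotype for the 37 genes (points), with the quartiles and median of all 17097 genes (grey bars) and of the 4274 brightest genes (orange bars). The points for wild-type replicate 2 minus 1 all lie above 0, those for HDAC7-deficient replicate 1 minus 3 too, and those for replicate 2 minus 3 lie around 0 with a median of 0.03.

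Markers of some cell types followed that order in HDAC7-deficient cells and others did not. HDAC7-deficient replicate 1 was above replicates 2 and 3 for 11 of 12 pro-B markers, by medians of 0.71 and 0.69, among them the recombinase gene Rag2 with 9.09 against 7.15 and 6.94. It was above both for 0 of 8 myeloid, 0 of 6 plasmacytoid dendritic cell, 0 of 5 erythroid and 1 of 8 NK and T markers, and for 2 of 6 markers of large pre-B and later B cells, whose median differences were -0.18 and -0.24. The list medians on replicates 1, 2 and 3 were 10.35, 9.46 and 9.41 for pro-B markers, 10.77, 11.26 and 11.28 for myeloid markers and 5.88, 6.87 and 6.94 for erythroid markers. In wild type 10 of 12 pro-B markers were higher on replicate 2 than on replicate 1, by a median of 0.17, as were 3 of 6 large pre-B and later B, 1 of 8 myeloid, 6 of 6 plasmacytoid dendritic cell, 7 of 8 NK and T and 3 of 5 erythroid markers. The part of these cells in the levels of mitosis genes was not tested. HDAC7-deficient replicate 1 is also the only one of its group among the Xist-low arrays, so that the order and the Xist division cannot be told apart there.

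The 37 genes did not differ alike on wild-type replicate 3. Against the mean of wild-type replicates 1 and 2 it differed by a median of -1.08, from -4.31 (Cdca8), -3.53 (Cdc20) and -3.46 (Cenpa) to 0.62 (Ect2) and 0.75 (Hmmr). It lay below both for 30 of the 37, against 41.0% of all genes and 87.4% of the brightest genes, where the median difference was -1.36. Probe sets of 1 gene disagreed on this array. For the 21 genes with several probe sets the gap between their differences reached 2.61 in Cenpa, 2.45 in Kif23 and 2.25 in Cenpf, and was as low as 0.19 in Kif11. The brighter Racgap1 probe set read 8.78, 9.43 and 9.04 in wild type and the other 8.07, 8.67 and 6.88, so that the array was between its partners on the former and far below them on the latter. The role of RNA quality in this was not tested.

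**Figure D5:**
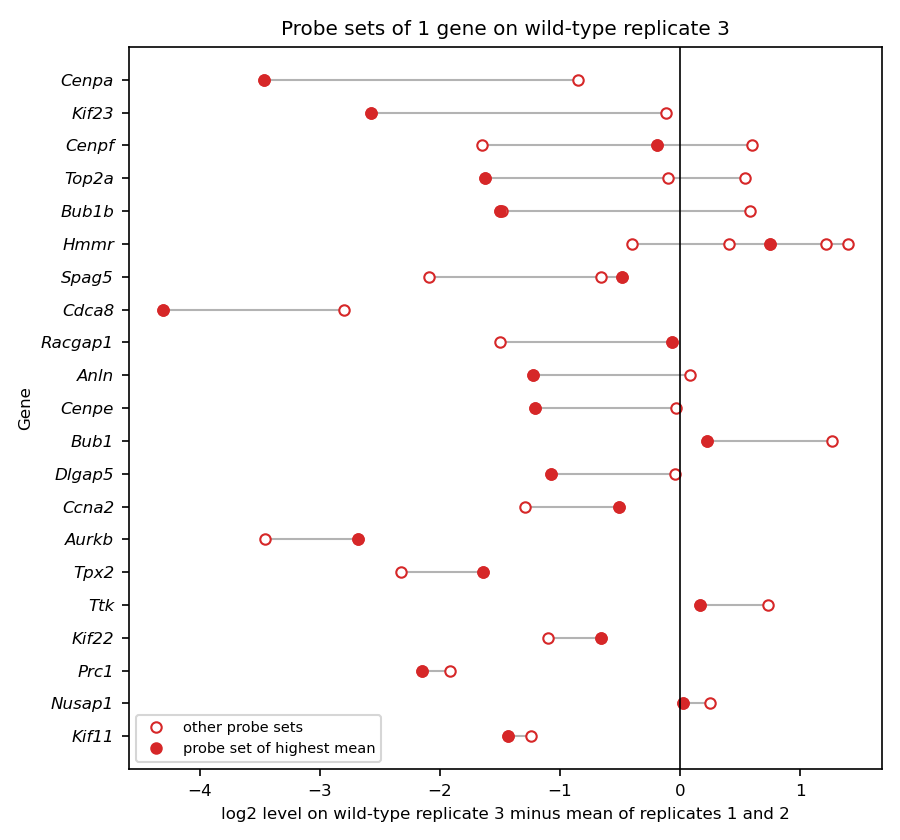
Log2 level on wild-type replicate 3 minus the mean of wild-type replicates 1 and 2 for each probe set of the 21 genes with several, the probe set of highest mean filled. Differences run from -4.31 for Cdca8 to 1.40 for Hmmr, and within a gene they spread by up to 2.61, in Cenpa.

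The dimmer probe sets held the few cases in which the groups did not overlap. Of 65 probe sets of the 37 genes 2 were apart on the higher side and 2 on the lower side, against 11.5% and 14.9% of all 45037 probe sets. The dimmer Kif23 probe set read 5.47, 5.57 and 5.40 in wild type and 6.37, 6.14 and 6.09 in HDAC7 deficient, a change of 0.73 ± 0.19 (limma adjusted p over probe sets = 0.310), or 0.69 ± 0.19 without wild-type replicate 3 (0.192). Both Kif23 probe sets thus had higher HDAC7-deficient means, whether or not that array was used, and neither passed. The wild-type values of the dimmer one lay below the medians of those arrays over all probe sets (5.85 to 6.15). The dimmer Cenpa probe set read 7.76, 8.25 and 7.16 against 8.72, 8.38 and 8.97, a change of 0.96 ± 0.36 (0.352), or 0.68 ± 0.26 without wild-type replicate 3 (0.288). Cenpa encodes the histone H3 variant of centromeres, and its brighter probe set had overlapping groups.

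Hmmr, which encodes a hyaluronan receptor that also binds spindle microtubules, had 5 probe sets that ran in different directions. Of these the second by mean read 7.91, 7.37 and 9.03 in wild type and 7.13, 6.86 and 7.15 in HDAC7 deficient, a change of -1.06 ± 0.44 (limma adjusted p over probe sets = 0.354), and the fourth by mean differed by -0.85 ± 0.38 (0.355). They differed by -0.59 ± 0.25 and -0.45 ± 0.21 without wild-type replicate 3. The brightest, used above, had overlapping groups and a change of -0.19 ± 0.38, or 0.06 ± 0.31 without that array. Cdca8, Ect2, Anln, Rag2, these probe sets and the dimmer ones of Cenpe and Cenpf were singled out after their values were seen.

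Other genes of the cell cycle were read beside the 37. Of 70 other mitosis genes 53 were higher with all arrays (median 0.15) and 30 without wild-type replicate 3 (median -0.04), and none passed. The 3 with the smallest p were Tacc3, a spindle pole protein, with 0.61 ± 0.38, Cenpl, a centromere protein, with 1.01 ± 0.65, and Espl1, separase, with 0.65 ± 0.43 (limma adjusted p = 0.400 to 0.413). These were 0.26 ± 0.25, 0.37 ± 0.45 and 0.23 ± 0.27 without wild-type replicate 3. Of 37 S phase genes 31 were higher with all arrays (median 0.35), and 2 without wild-type replicate 3 (median -0.25). The 3 with the smallest p over all arrays were Orc1, of the origin recognition complex, with -0.55 ± 0.36, and the licensing factors Cdt1, with 0.45 ± 0.44, and Cdc6, with 0.65 ± 0.64 (limma adjusted p = 0.410 to 0.515). Leaving out wild-type replicate 3 gave -0.15 ± 0.20, 0.0041 ± 0.17 and -0.043 ± 0.36. In the fit without wild-type replicate 3, 7 of the 37 were lower at an unadjusted p under 0.05, against the 8.84% of all genes given above. Uhrf1, which maintains DNA methylation at replication, was among them with 9.82, 10.18 and 7.52 in wild type and 9.71, 9.21 and 9.16 in HDAC7 deficient, a change of 0.18 ± 0.70 with all arrays and of -0.64 ± 0.21 (limma adjusted p = 0.279) without replicate 3. Uhrf1 was named after its values were seen. Between HDAC7-deficient replicate 1 and wild-type replicates 1 and 2 the S phase median was -0.03, against 0.23 for the mitosis and spindle genes. Both medians rest on 1 HDAC7-deficient array.

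The G1 list holds regulators that act upstream of mitosis. Of 16 G1 cyclins, their kinases and inhibitors 13 were higher with all arrays (median 0.61) and 8 without wild-type replicate 3 (median -0.03). Groups were apart on the higher side for 4 and on the lower side for 1, against 9.45% and 16.8% of all genes. Of the 4274 brightest genes 726 and 66 were apart on these sides. Without wild-type replicate 3 the list had 5 and 4 apart, against 11.8% and 19% of all genes. In that fit 4 were higher and 2 lower at an unadjusted p under 0.05 in limma, against 5.19% and 8.84%. Ccnd1, cyclin D1, read 10.68, 10.70 and 8.89 in wild type and 11.13, 11.38 and 11.25 in HDAC7 deficient, a change of 1.16 ± 0.53 (limma adjusted p = 0.377), or 0.56 ± 0.10 (0.112) without wild-type replicate 3. Btg2, an antiproliferative gene that p53 induces, read 9.95, 9.99 and 7.74 against 10.53, 10.68 and 10.55, a change of 1.36 ± 0.63 (limma adjusted p = 0.377), or 0.62 ± 0.11 (0.122). Cdkn1a, the CDK inhibitor p21, read 7.73, 8.38 and 6.48 against 8.56, 8.49 and 8.67, a change of 1.04 ± 0.49, or 0.52 ± 0.24 (0.388). All 3 were higher on every HDAC7-deficient array than on any wild-type array, and none passed.

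Of 22 cell cycle transcription factors, which include the subunits of MuvB and its relatives, 17 were higher with all arrays (median 0.37) and 9 without wild-type replicate 3 (median -0.03). The groups were apart on the higher side for 1 of the 22 and on the lower side for 3, against 9.45% and 16.8% of all genes. Those lower were Foxm1, the activator of mitosis genes, by -0.28, and the E2F factors E2f1 and E2f3, by -0.35 and -0.31, named after their values were seen. None of the 22 was lower at an unadjusted p under 0.05 in limma, with or without wild-type replicate 3. E2f5, an E2F family member that works with the pocket proteins, read 4.14, 4.81 and 4.51 in wild type and 5.90, 5.59 and 4.93 in HDAC7 deficient. It was the gene apart on the higher side, with a change of 0.99 ± 0.29 (limma adjusted p = 0.377), or 1.004 ± 0.30 (0.251) without wild-type replicate 3. E2f5 was dim: the medians of the arrays over all probe sets were 5.83 to 6.15. Rbl2, the pocket protein p130 of resting cells, differed by 1.06 ± 0.49, and Lin9, a core MuvB subunit, by 0.77 ± 0.42. Without wild-type replicate 3 these were 0.56 ± 0.30 and 0.43 ± 0.35.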

How the data were processed

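Expression was measured on 6 arrays, 3 per group, and the authors deposited 1 log2 value per probe set and array. The log2 scale was read from the values; the normalization is not given in the sources used here. Of 45037 probe sets left after 104 controls, 28898 had 1 gene symbol in the platform annotation, updated by Entrez number through a RefSeq table of GRCm38.p6 (28689 matched). Each of 17097 genes kept its probe set of highest mean.

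Groups were compared over all genes with limma 3.58.1 in R 4.3.3 (intensity trend, two-sided, Benjamini-Hochberg, threshold 0.05), with no filter on dim genes. The script was tested on simulated data. Changes are HDAC7 deficient minus wild type, ± SE. The labels call the arrays biological triplicates without naming animals, so p-values measure the spread between these samples only. The number of arrays limits the precision. The members and lists were chosen with earlier results of these data known. In each role the members of smallest p and of highest mean were given in full, and in each other list the 3 genes of smallest p. Values of Cdk1, Mad2l1 and the genes named after their values were seen were given outside this rule. Motifs were searched on both strands. Alternatives left out each array, blocked by replicate number or Xist division, renormalized (quantile, median centring), averaged probe sets, left out the dimmest 25% or 50% of genes, or dropped the trend. Figures were drawn with matplotlib 3.10.9.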

Additional observations from a re-analysis of the deposited data

How the results depend on the processing

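No mitosis or spindle gene passed under any alternative that could be fitted, and the precision is limited by 3 arrays per group. The median change of 0.32 turned to -0.11 without wild-type replicate 3 and to -0.0847 under quantile normalization; over the 6 fits that each left out 1 array it ran from -0.11 to 0.63. The genes called over all genes stayed at 0, except for 1 (Hspa1b) with the replicate block and 4 with the Xist division as block and wild-type replicate 3 left out. Genes with an unadjusted limma p below 0.05 numbered 2165 over all arrays, 626 to 5801 with 1 array left out, 3515 with the replicate block and 7288 with the Xist division as block. Whether replicate numbers pair the arrays cannot be told from these few values. Deviations from the group means correlated at 0.0964, 0.21 and 0.48 for same-numbered arrays. Wild-type replicate 3 correlated best with HDAC7-deficient replicate 3. Wild-type replicate 1 correlated best with HDAC7-deficient replicate 2 (0.11), and wild-type replicate 2 with HDAC7-deficient replicate 1 (0.36). With the replicate block 0 of the 37 genes passed. Leaving out each array gave ranges of -0.11 to 0.76 for Ccnb2, -0.22 to 0.13 for Ccna2, -0.0427 to 0.95 for Aurka, -0.21 to 0.37 for Plk1, -0.22 to 0.71 for Top2a, -0.19 to 1.24 for Aurkb, -0.21 to 0.79 for Birc5, -0.30 to 0.0923 for Cenpf, -0.29 to 1.58 for Cdc20, -0.10 to 0.49 for Ube2c, -0.11 to 0.80 for Tpx2 and -0.13 to 1.02 for Prc1. Quantile normalization gave -0.0374 for Ccnb2, -0.37 for Plk1, -0.0748 for Top2a, -0.0847 for Mki67 and -0.10 for Ube2c. Ccna2 and Cenpf, near 0 in the main comparison, turned to 0.11 and 0.0782 with the Xist division as block, 0.0783 and 0.33 with wild-type replicate 3 left out as well, 0.0905 and 0.0663 under median centring, and 0.13 and 0.0927 as means over probe sets. With the Xist division as block and wild-type replicate 3 left out, Plk1 turned to -0.18 and Cdc20 to -0.18. The cause was not tested. Array weights could not be fitted: limma's estimate stopped short of its tolerance and gave wild-type replicate 1 a weight of 40510 against 0.0148 to 0.892 elsewhere. The fit with these weights called 10932 genes, 7 of the 37 among them, and was not used.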
